A study of Bos taurus with 52 samples.

Results

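This account compares gene expression in pregnant endometrium between subfertile heifers (P-SF) and high-fertile heifers (P-HF). Its members are the 10 endometrium libraries whose titles begin with either group name, 5 in each, out of 52 libraries in the series. Every gene that passed a filter on low counts was tested, 19606 of 31651 in the table. All 10 animals were pregnant heifers (Bos taurus) sampled on day 17, P-SF animals being labelled subfertile and P-HF animals high fertile. The sources used here do not say how the fertility class was assigned, nor the breed, age and sire of the animals. Each library carries its own animal number, so the 5 libraries of a group stand for 5 animals. The wider series also holds non-pregnant endometrium of infertile, subfertile (NP-SF) and high-fertile (NP-HF) heifers, 5 animals each, and day 17 conceptuses. No day is given for the non-pregnant animals, and NP-SF and NP-HF are used only to ask whether the class difference depended on pregnancy.

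The endometrium is the inner lining of the uterus, made of luminal and glandular epithelium over a stroma of fibroblasts, vessels, smooth muscle and leukocytes. In ruminants the elongating conceptus secretes interferon tau, which acts on this lining, induces interferon-stimulated genes and holds back the oxytocin receptor, so that the pulses of prostaglandin that would end the pregnancy do not develop. The stroma is rich in collagens, proteoglycans and matricellular proteins, and its remodelling accompanies the attachment of the conceptus.

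The 10 libraries held 17.1 to 27.3 M counted reads and 23085 to 24233 detected genes, with 3.22% to 3.93% of the reads in the 10 most abundant genes. The tissue and pregnancy labels matched their markers. EPCAM, an epithelial adhesion molecule, lay between 477 and 669 CPM (normalised read count, scaled to library size), COL3A1, the stromal collagen III chain, between 1142 and 4454 CPM, and the interferon-induced ISG15 between 431 and 1483 CPM. ISG15 averaged 17.7 ± 25.1 CPM in NP-SF and 5.47 ± 1.80 CPM in NP-HF (SD, n = 5 each). Of the transcripts that mark a conceptus, PAG2 and CSH2 had 0 reads in all 10 libraries, and IFNT2 lay between 1.75 and 3.90 CPM, close to its non-pregnant means of 2.29 ± 0.686 CPM in NP-SF and 2.79 ± 0.312 CPM in NP-HF (SD, n = 5 each). Of 17 such transcripts measured, 6 passed the filter, IFNT2 among them. SSLP1 lay between 5.18 and 14.5 CPM, PAG1 between 1.13 and 3.61 CPM and GATA3 between 1.97 and 5.22 CPM. TFAP2C lay between 1.65 and 3.82 CPM, and ELF5 was at most 0.896 CPM.

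Libraries P-SF 5 and P-HF 1 stood apart from their class, which bears on every result here. On the first principal component of the 10 libraries, which held 23.5% of the variance, P-SF 1 to P-SF 4 lay between -38.36 and -26.24, while P-SF 5 lay at 55.37. P-HF 2 to P-HF 5 lay between 16.79 and 33.32, while P-HF 1 lay at -21.87. Each of these libraries was thus on the side of the opposite class. Whether their class labels are right was not tested. The groups did not overlap for SPARCL1, SCD5, DCN or the collagen score. These measures were chosen or named with the class labels known, so they are no check of the labels. For EFNB3, P-SF 5 (8.8 CPM) fell within the P-HF range of 6.27 to 9.64 CPM. The interferon score (mean log2(CPM + 1) of the list) was 8.84 in P-SF 5, above all P-HF libraries. In P-HF 1 it was 7.57, below all P-SF libraries. Conceptus libraries could be tied to 8 of the 10 animals by the last 3 digits of the animal number, and a length is labelled for 5 of these animals. The lengths were 50 and 40 mm for P-SF 1, 135 and 40 mm for P-SF 3, 20 mm for P-SF 4, 170 and 28 mm for P-HF 4, and 117 and 13 mm for P-HF 5. These come from the conceptus titles, and in 20 of the 27 conceptus libraries the description names another animal than the title, but both name conceptuses of the same 8 animals. For P-SF 5 and P-HF 2 no conceptus library was at hand, and for P-SF 2, P-HF 1 and P-HF 3 no length is given. Whether the size of the conceptus moved with the endometrial values was not tested.

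**Figure D1:**
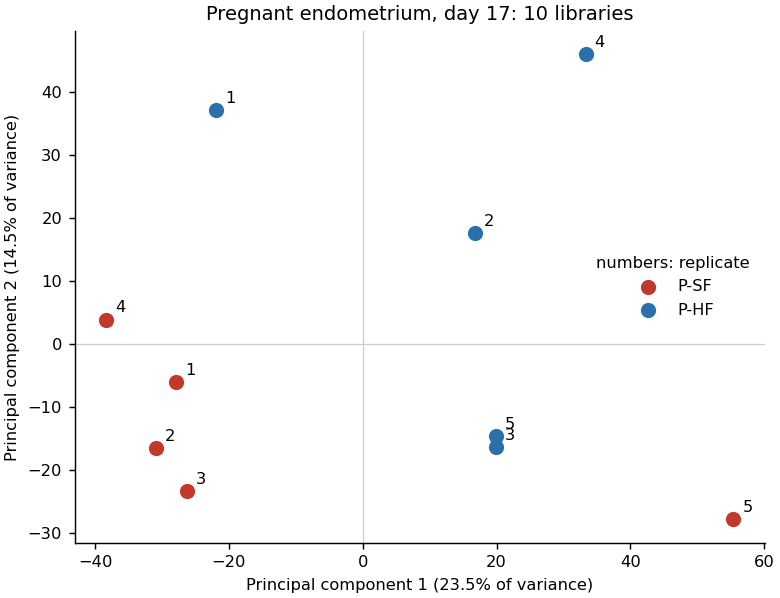
The first 2 principal components of the 10 pregnant endometrium libraries (log2 scale, all tested genes), each point 1 animal, with replicate numbers beside the points. P-SF 5 lies at 55.37 on the first component beside the P-HF libraries, and P-HF 1 at -21.87 on the side of P-SF 1 to P-SF 4.

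The genes that set P-SF 5 apart named particular cell functions. In P-SF 5, IDO1, the interferon-inducible enzyme that degrades tryptophan, lay at 421 CPM against a median of 66.6 CPM in the other 9 libraries, and ULBP3, a stress ligand of natural killer cells, at 25.1 against 0.451 CPM. For IDO1 the others were not alike, at 37.0 to 66.6 CPM in P-SF 1 to P-SF 4 and 160 to 331 CPM in P-HF 2 to P-HF 5. DNAH9, a dynein of motile cilia, lay at 11.1 CPM in P-SF 5 against a median of 79.6 CPM, and SYT4, a synaptotagmin of vesicle release, at 3.26 against 171 CPM. P-HF 1 had 230 CPM of AQP1, a water channel of endothelium, against a median of 73.7 CPM, and 3.21 CPM of the WNT antagonist DKK1 against 30.0 CPM. SP100, a nuclear body protein, split across both classes, with 43.9, 30.4, 62.9, 3.20 and 2.97 CPM in P-SF 1 to 5 and 4.51, 61.3, 8.05, 45.8 and 74.0 CPM in P-HF 1 to 5.

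No gene was called between P-SF and P-HF by the quasi-likelihood test of edgeR (Benjamini-Hochberg adjusted p under 0.05), 0% of 19606. An unadjusted p under 0.05 was reached by 1984 genes (10.1%), 1289 higher in P-SF (6.57%) and 695 lower (3.54%). In 229 genes (1.17%) every P-SF library lay above every P-HF library, and in 76 genes (0.388%) every one lay below. DESeq2 called 95 genes, 87 higher (0.444%) and 8 lower (0.0408%), limma-voom called 0, and limma-voom with library quality weights called 24, 19 higher (0.0969%) and 5 lower (0.0255%). Without P-SF 5 edgeR called 116 genes, 86 of them higher in P-SF (0.434%) and 30 lower (0.152%). Without P-HF 1 it called 13, 11 higher (0.0555%) and 2 lower (0.0101%), and with any one of the other 8 libraries left out it called 0. Without both it called 634, 285 higher (1.44%) and 349 lower (1.76%). Since those libraries were picked for lying with the opposite class, that last count describes the other 8 libraries and is no test of class. Because no gene passed in all 10 libraries, the genes below are given as values, with log2 fold changes (P-SF minus P-HF), their standard errors and adjusted p from edgeR.

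In each direction 12 genes were named, those of smallest p that met the following conditions. They averaged 5 CPM or more in the higher class and had 20 or more of the 25 P-SF and P-HF library pairs ordered alike. Genes known only as LOC and a number were passed over, whatever their p. Among the named genes higher in P-SF, 3 belonged to the stroma and its matrix. SPARCL1, a matricellular relative of SPARC, lay at 957, 903, 855, 859 and 793 CPM in P-SF 1 to 5 and at 513, 609, 577, 421 and 537 CPM in P-HF 1 to 5. The groups did not overlap, and SPARCL1 was higher in P-SF by 0.72 ± 0.13 (edgeR adjusted p = 0.107, DESeq2 adjusted p = 0.00233). FAP, the surface protease of activated fibroblasts, lay at 71.9, 81.9, 72.7, 59.5 and 59.2 CPM in P-SF and at 44.0, 37.4, 40.0, 41.6 and 49.8 CPM in P-HF, again without overlap (0.70 ± 0.14, adjusted p = 0.107). ADAM12, a metalloprotease of mesenchymal cells, lay at 8.58, 12.1, 15.6, 13.9 and 7.83 CPM in P-SF and at 3.50, 6.28, 6.08, 2.92 and 4.75 CPM in P-HF. It did not overlap either, and its difference was 1.3 ± 0.27 (adjusted p = 0.107).

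Signalling molecules made up a second set. EFNB3, a membrane-bound ligand of Eph receptors, had the smallest unadjusted p among the named genes (adjusted p = 0.107) and lay at 18.7, 18.2, 19.8, 20.2 and 8.8 CPM in P-SF 1 to 5 and at 9.64, 9.24, 8.29, 6.27 and 7.48 CPM in P-HF 1 to 5. P-SF 5 fell among the P-HF libraries, and the other 4 P-SF values were close to each other. The EFNB3 difference was 1.07 ± 0.20, and 5 of 19 alternatives called it, with adjusted p between 0.00129 and 0.425. IRS4, an adaptor of insulin and IGF receptors, lay at 16.6, 18.7, 10.1, 13.8 and 6.66 CPM in P-SF and at 5.75, 6.72, 4.46, 4.66 and 3.82 CPM in P-HF. P-SF 5 was the lowest P-SF library for IRS4 too, just under the highest P-HF value, at a difference of 1.38 ± 0.28. DOCK11, an activator of the small GTPase CDC42, differed by 0.60 ± 0.12, and THRB, a thyroid hormone receptor, by 0.76 ± 0.17 (edgeR adjusted p = 0.107 and 0.122), both without overlap.

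The remaining 5 genes with a positive difference had other roles. SCD5, a fatty acid desaturase, lay at 13.8, 15.4, 14.1, 13.8 and 16 CPM in P-SF and at 8.85, 8.67, 10.38, 7.45 and 11.5 CPM in P-HF. P-SF 5 was the highest library for SCD5, so that the groups did not overlap and this gene did not follow the first principal component (0.64 ± 0.14, adjusted p = 0.122). APH1B, a subunit of gamma-secretase, differed by 0.70 ± 0.14 and TRIM44, a member of the tripartite motif family, by 0.52 ± 0.10 (edgeR adjusted p = 0.107 each), both without overlap. FAM196A, whose role is not described here, lay between 7.83 and 10.9 CPM in P-SF and between 3.20 and 4.85 CPM in P-HF, at 1.19 ± 0.22. CHST9, a sulfotransferase of N-acetylgalactosamine, lay between 20.4 and 33.0 CPM in P-SF and between 12.3 and 21.7 CPM in P-HF, with an overlap through P-SF 5 and P-HF 1 (0.76 ± 0.16).

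The 12 genes named lower in P-SF differed by -0.24 to -1.04, and their adjusted p ran from 0.122 to 0.24. ETFB, the beta subunit of the electron transfer flavoprotein, lay at 59.1, 48.9, 59.6, 47.6 and 62.3 CPM in P-SF and at 68.8, 63.0, 74.9, 70.4 and 76.1 CPM in P-HF, without overlap (-0.35 ± 0.09, adjusted p = 0.177). PGS1, which makes the precursor of the mitochondrial lipid cardiolipin, differed by -0.38 ± 0.08 (adjusted p = 0.122), MRPS17, a mitochondrial ribosomal protein, by -0.39 ± 0.10, and AHCY, which clears S-adenosylhomocysteine, by -0.50 ± 0.14. SLC19A2, a thiamine carrier, lay between 33.7 and 42.7 CPM in P-SF and between 43.2 and 56.6 CPM in P-HF, at -0.39 ± 0.10 (edgeR adjusted p = 0.188).

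The other genes of this direction included GRB7, an adaptor of receptor tyrosine kinases, at 54.8, 37.6, 59.4, 50.9 and 44.9 CPM in P-SF and 74.8, 69.2, 72.7, 89.2 and 67.1 CPM in P-HF. Its groups did not overlap (-0.59 ± 0.14, adjusted p = 0.161), and neither did those of DEDD2, a death effector domain protein (-0.45 ± 0.10), or BRD1, a bromodomain protein of histone acetyltransferase complexes (-0.24 ± 0.06). IL4I1, an amino acid oxidase of immune cells, lay at 8.67, 7.25, 7.75, 7.24 and 16.5 CPM in P-SF and at 12.8, 14.7, 14.4, 14.0 and 23.1 CPM in P-HF. P-SF 5 exceeded 4 of the P-HF libraries for IL4I1, and the other P-SF libraries lay below all 5 (-0.74 ± 0.20, adjusted p = 0.199). DNAJC12, a co-chaperone of aromatic amino acid hydroxylases, lay at 11.4 to 35.4 CPM in P-HF and 5.62 to 15.3 CPM in P-SF (-1.04 ± 0.28). MAFG, a small MAF transcription factor, and ATXN1L, a transcriptional repressor, differed by -0.36 ± 0.10 and -0.24 ± 0.07.

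**Figure D2:**
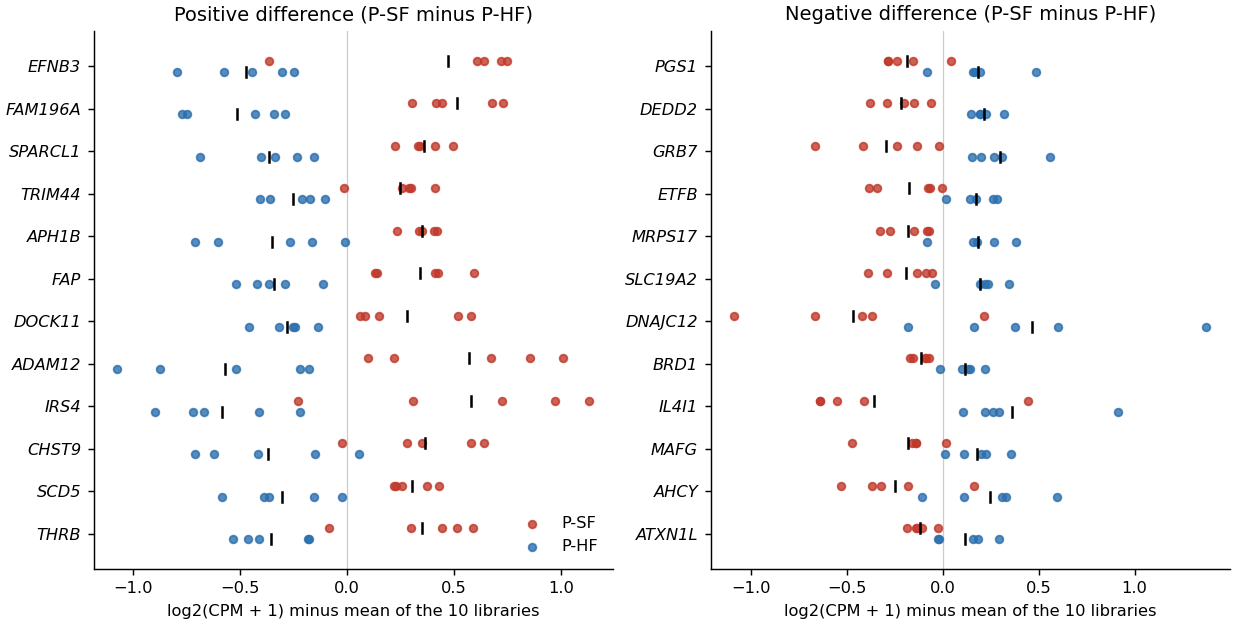
The 24 named genes in each of the 10 libraries, as log2(CPM + 1) minus the mean of the 10, with black ticks at group means. For EFNB3 and IL4I1, 1 P-SF point (replicate 5) lies with the P-HF points, whereas for SPARCL1, FAP and SCD5 the colours do not mix.

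The collagens were the list with the largest median difference among the 30 lists described. All 17 tested members had a positive difference, against 49.7% of all tested genes, with a median of 0.57 against -0.002 over all genes. At an unadjusted p under 0.05, 13 of 17 were higher in P-SF and 0 lower, against 6.57% and 3.54% of all genes, and no collagen was called by edgeR. COL3A1, the main chain of collagen III, lay at 3194, 4154, 3963, 4454 and 2298 CPM in P-SF 1 to 5 and at 2753, 1952, 1813, 1142 and 1774 CPM in P-HF 1 to 5. P-SF 5 lay below P-HF 1 and above the other 4 P-HF libraries, and the difference was 0.94 ± 0.24 (edgeR adjusted p = 0.17, DESeq2 adjusted p = 0.0335). COL5A3, a chain of the collagen that regulates fibril width, lay at 151, 215, 196, 149 and 82.0 CPM in P-SF and at 97.2, 72.4, 85.1, 43.0 and 75.1 CPM in P-HF (1.09 ± 0.24, edgeR adjusted p = 0.122). DESeq2 called COL5A3 and COL3A1.

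Of the collagens, 3 did not overlap between the classes, against 1.17% of all genes. COL1A2, a collagen I chain, lay at 1627, 2267, 2119, 2140 and 1760 CPM in P-SF and at 1625, 1094, 1165, 543 and 1328 CPM in P-HF, the lowest P-SF library (P-SF 1) being level with the highest P-HF library (P-HF 1), at 0.78 ± 0.22 (edgeR adjusted p = 0.232). COL16A1, a fibril-associated collagen, lay at 178, 228, 193, 166 and 199 CPM in P-SF and at 145, 137, 143, 93.7 and 132 CPM in P-HF (0.57 ± 0.15, edgeR adjusted p = 0.199). COL5A2 was the third of them, and COL1A1, the partner chain of COL1A2, overlapped. P-HF 4 was the lowest of the 10 libraries in 12 of the 17 collagens, against 2652 of 19606 tested genes, and P-SF 2 the highest in 10. The collagen score, the mean log2(CPM + 1) of the members, was 7.93, 8.20, 8.15, 8.05 and 7.87 in P-SF 1 to 5 and 7.66, 7.53, 7.52, 7.06 and 7.53 in P-HF 1 to 5. The lowest score was thus that of P-HF 4, and the 2 groups did not overlap. The median collagen difference was 0.52 without P-HF 4, 0.62 without P-SF 5 and 0.62 without both P-SF 5 and P-HF 1. In the last case 4 of 17 were called higher, against 1.44% of all genes. Since those libraries were picked for lying with the opposite class, that count is no test of class.

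**Figure D3:**
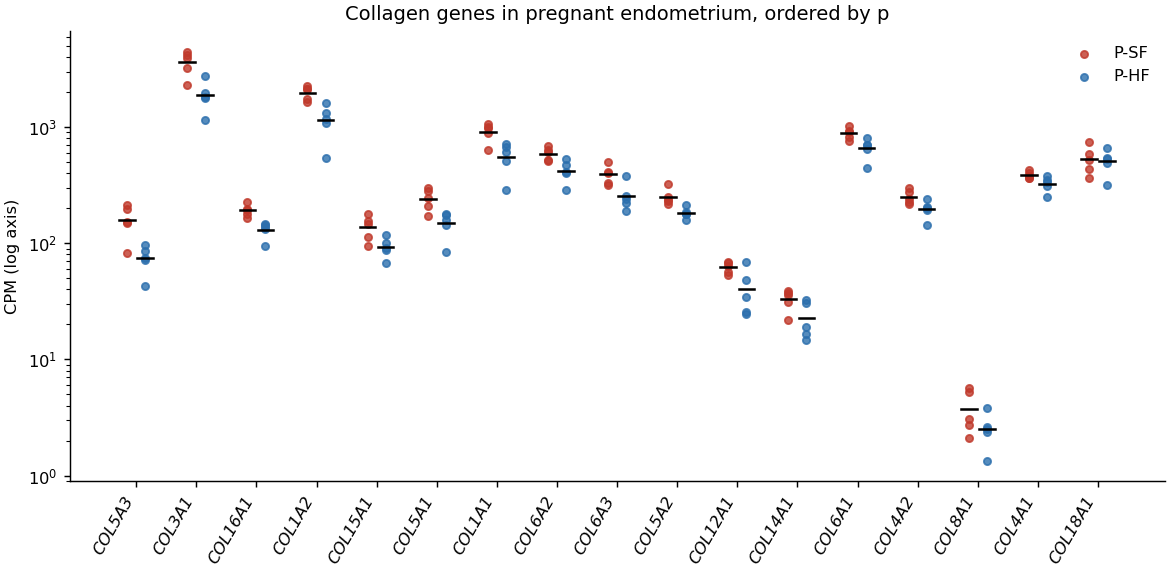
CPM of the 17 collagen genes in the 10 libraries on a log axis, ordered by p, with bars at group means. The P-SF mean lies above the P-HF mean for all 17, and the groups are fully separate for COL16A1, COL1A2 and COL5A2.

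Other matrix genes lay in the direction of the collagens without passing the test. Of 39 proteoglycans and matricellular proteins, 36 had a positive difference with a median of 0.42, 17 were higher at an unadjusted p under 0.05 (6.57% of all genes) and 0 lower, and 6 did not overlap (1.17% of all genes), namely SPARCL1, CILP, FN1, DCN, SPARC and ELN. Decorin (DCN), which binds collagen fibrils, lay at 3249, 3585, 2800, 2997 and 3598 CPM in P-SF and at 2451, 2560, 2687, 2342 and 2674 CPM in P-HF. Its difference was modest, 0.35 ± 0.14 (edgeR adjusted p = 0.41), with P-SF 5 the highest library. Fibronectin (FN1) lay at 182, 203, 187, 235 and 216 CPM in P-SF and at 146, 165, 144, 108 and 175 CPM in P-HF (0.47 ± 0.17). NID1, a linker of basement membranes, lay at 67.1, 67.5, 85.5, 105 and 42.0 CPM in P-SF and at 65.6, 33.8, 36.1, 18.2 and 45.2 CPM in P-HF, with P-SF 5 among the P-HF libraries (0.89 ± 0.27, edgeR adjusted p = 0.259). FBLN2, an elastic fibre protein, differed by 0.48 ± 0.14. Of the 39, P-HF 4 was the lowest library in 22.

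Genes that cut or protect the matrix showed the same direction in fewer members. Of 21 proteases and inhibitors, 16 had a positive difference with a median of 0.29, and 3 were higher at an unadjusted p under 0.05, against 6.57% of all genes. Without P-HF 4 their median was 0.19. ADAMTS2, which trims procollagen, lay at 14.1, 20.7, 14.9, 18.2 and 11.67 CPM in P-SF and at 10.2, 10.8, 9.59, 5.09 and 10.7 CPM in P-HF, without overlap (0.78 ± 0.27, edgeR adjusted p = 0.333). SERPINF1, an inhibitor-family protein that binds collagen, differed by 0.62 ± 0.24, also without overlap, and the gelatinase MMP2 by 0.55 ± 0.23. SERPINE2, a thrombin inhibitor, differed by 0.45 ± 0.23, with P-SF values of 210 to 302 CPM and P-HF values of 138 to 243 CPM.

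Markers of stromal, vascular and epithelial cells also leaned to one side, and in bulk tissue fewer cells of a type and less RNA per cell cannot be told apart. Over all tested genes, 49.7% were positive, and at an unadjusted p under 0.05, 6.57% were higher and 3.54% lower. Of 16 stromal markers, 15 had a positive difference with a median of 0.36, but 8 of the 16 are also on a matrix list. Of the other 8, 7 were positive and 4 were higher at an unadjusted p under 0.05 (PDGFRB, THY1, VIM and HOXA10), with a median of 0.29, and their score was 6.5 to 6.63 in P-SF and 6.11 to 6.47 in P-HF. The summed level of the 16 stromal markers was 10890 to 13760 CPM in P-SF and 5794 to 9282 CPM in P-HF. All 14 smooth muscle markers were positive (median 0.46, 2 at p under 0.05), but P-SF 5 was the highest library in 12 of them, and the median was 0.25 without it. Endothelial markers were positive in 13 of 15 (median 0.33, and 0.23 without P-HF 4). TIE1, a receptor of endothelium, differed by 0.59 ± 0.19 and PECAM1, a junction molecule, by 0.49 ± 0.19. P-HF 1 had the highest PECAM1 of the 10 libraries (50 CPM). Epithelial markers went the other way, 17 of 20 negative with a median of -0.12 (-0.06 without P-SF 1 and -0.19 without P-SF 5) and 3 lower at p under 0.05. Among them FOXA2, the transcription factor of uterine glands, lay at 22.5, 19.2, 22.9, 21.5 and 22 CPM in P-SF and at 32.4, 21.2, 22.8, 38.4 and 27.0 CPM in P-HF (-0.39 ± 0.16, edgeR adjusted p = 0.422). EPCAM and the junction protein OCLN differed by -0.23 ± 0.10 and -0.30 ± 0.13. The summed level of the 20 epithelial markers was 2459 to 2942 CPM in P-SF and 2832 to 3075 CPM in P-HF. The part of tissue composition in the matrix values was not tested.

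Ciliated and blood cell markers did not separate the classes with all libraries in. Ciliated markers were positive in 8 of 16 (median 0.00), yet P-SF 5 was the lowest library in all 16, against 10.8% of all genes. Without P-SF 5, 15 of the 16 ciliated markers were positive, with a median of 0.25 and 0 called by edgeR. Their score was 5.11, 5.00, 4.65, 5.23 and 3 in P-SF 1 to 5 and 4.46 to 4.96 in P-HF. Leukocyte markers were negative in 27 of 39 (median -0.10, -0.19 without P-HF 1 and 0.00 without P-HF 4). Of the 39, 4 were lower and 1 higher at an unadjusted p under 0.05, against 3.54% and 6.57% of all genes. CPA3, a mast cell protease, lay at 6.57, 5.41, 3.75, 7.38 and 5.74 CPM in P-SF and at 2.48, 3.14, 3.83, 4.01 and 4.56 CPM in P-HF (0.67 ± 0.24), whereas S100A12, a neutrophil protein, differed by -1.03 ± 0.42, LAG3, a T cell receptor that restrains activation, by -0.999 ± 0.37 and CD68, a macrophage marker, by -0.29 ± 0.12. The adjusted p of these 4 genes from edgeR lay between 0.355 and 0.431. Only 2 red blood cell markers passed the filter, and HBA, a haemoglobin chain, was at most 0.603 CPM.

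The interferon response, which the conceptus induces, had a small and uniform direction but a wide spread between animals. Of 53 interferon-stimulated genes, 51 had a negative difference (median -0.24), and 0 reached an unadjusted p under 0.05, against 3.54% of all genes. ISG15, a ubiquitin-like modifier, lay at 830, 431, 527, 613 and 1483 CPM in P-SF 1 to 5 and at 432, 1118, 1212, 924 and 1378 CPM in P-HF 1 to 5. P-SF 5 was the highest of the 10 and P-HF 1 one of the 2 lowest, and the difference was -0.38 ± 0.57 with a 95% interval of -1.57 to 0.80. MX2, an antiviral GTPase, differed by -0.42 ± 0.61, with its highest level in P-SF 5 (1566 CPM) and its lowest in P-HF 1 (452 CPM). PARP12, an interferon-induced ADP-ribosyltransferase, had the smallest p of the list and lay at 498, 324, 365, 379 and 670 CPM in P-SF and at 314, 660, 613, 595 and 774 CPM in P-HF (-0.40 ± 0.20, edgeR adjusted p = 0.51). STAT2, which carries the interferon signal to the nucleus, and TRIM25, a ubiquitin ligase of antiviral signalling, differed by -0.28 ± 0.18 and -0.27 ± 0.14.

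Within each class the interferon score spanned more than the difference between class means. It was 8.14, 7.62, 7.62, 7.88 and 8.84 in P-SF 1 to 5 and 7.57, 8.55, 8.46, 8.32 and 8.65 in P-HF 1 to 5, with means of 8.02 ± 0.51 and 8.31 ± 0.43 (SD, n = 5 each). P-SF 5 was the highest library in 39 of the 53 genes and P-HF 1 the lowest in 24, against 12.8% and 12% of all genes. The list median was -0.15 without P-SF 3, -0.37 without P-HF 1, -0.48 without P-SF 5 and -0.62 without both P-SF 5 and P-HF 1. In the last case 12 of 53 were called lower, against 1.76% of all genes. Those libraries were left out for lying with the opposite class, so this count is no test of class.

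**Figure D4:**
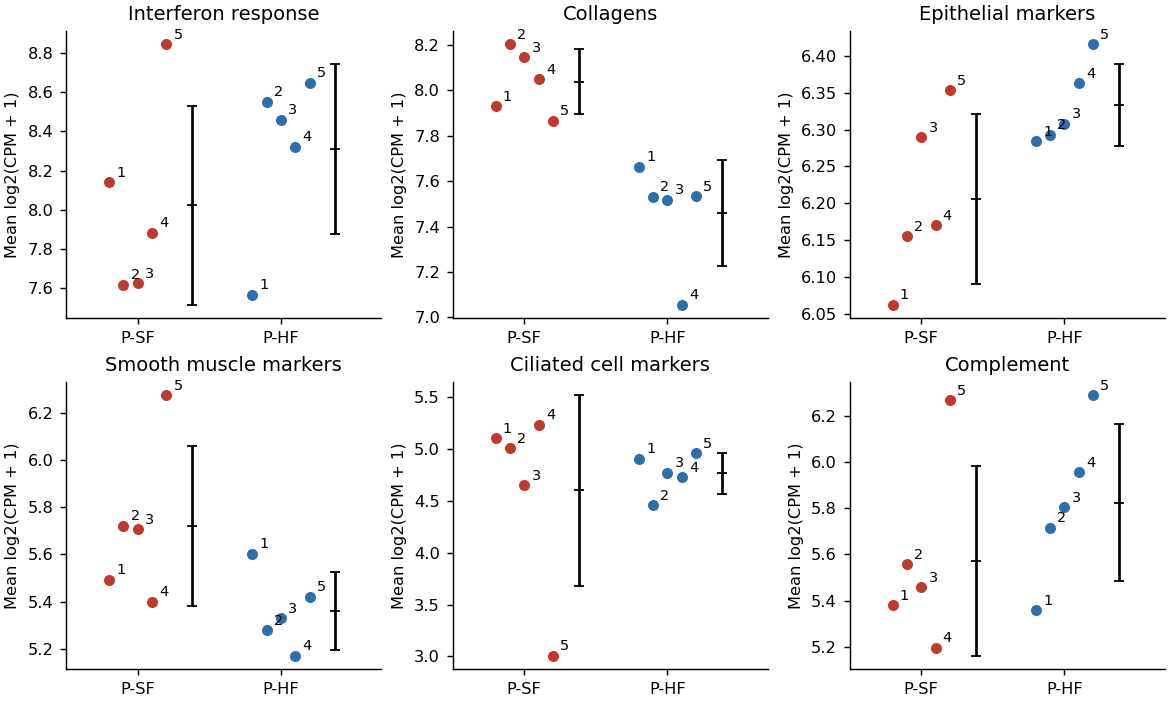
Scores (mean log2(CPM + 1) of the list's members) of 6 gene lists in the 10 libraries, with replicate numbers, and the mean and SD of each group to the right of its points. P-SF 5 is the top P-SF point for interferon, complement and smooth muscle genes and the bottom one for ciliated cell markers (score 3), and collagen scores do not overlap between P-SF and P-HF.

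Antigen presentation and complement lists differed in direction. MHC class I and processing genes were negative in 15 of 22 (median -0.09, -0.21 without P-SF 5 and -0.005 without P-SF 3), and P-SF 5 was the highest library in 19 of the 22 and P-HF 1 the lowest in 10. ERAP2, a peptidase that trims peptides for class I, was the exception without overlap, at 83.4 to 104 CPM in P-SF and 64.9 to 81.2 CPM in P-HF (0.27 ± 0.16, edgeR adjusted p = 0.575). MHC class II genes were positive in 11 of 13 (median 0.25, and 0.15 without P-HF 1), and P-HF 1 was the lowest library in 7. Without both P-SF 5 and P-HF 1, 7 of the 13 class II genes were positive, with a median of 0.04. BOLA-DQA1, a class II alpha chain, lay at 30.4, 2.18, 10.39, 0.975 and 1.99 CPM in P-SF and at 0.0564, 3.20, 2.37, 0.0435 and 0 CPM in P-HF, with classes that overlapped (3.05 ± 1.27, edgeR adjusted p = 0.435). The BOLA genes have close copies, and their read assignment is uncertain. Complement genes were negative in 15 of 21 (median -0.33), with a median of -0.51 without P-SF 5 and -0.10 without P-HF 5. P-SF 5 and P-HF 5 were each the highest library in 7 complement genes, and P-SF 4 the lowest in 8. CFI, the protease that inactivates C3b, lay at 27.6, 28.1, 33.5, 27.3 and 87.4 CPM in P-SF and at 85.1, 64.8, 36.3, 91.1 and 108 CPM in P-HF, so that 4 P-SF libraries lay below all 5 P-HF libraries and P-SF 5 did not (-0.92 ± 0.43, edgeR adjusted p = 0.482). C1QB and C1QC, chains of the first complement component, differed by -0.56 ± 0.29 and -0.59 ± 0.29. Chemokines were positive in 12 of 23 (median 0.01).

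Growth factor pathways held a few members with positive differences. In the IGF axis, 11 of 15 were positive (median 0.16), 4 were higher and 1 lower at an unadjusted p under 0.05, against 6.57% and 3.54% of all genes. Without P-HF 4 the median of the IGF axis was 0.03, and without P-SF 2 it was 0.28. IGF1, the ligand, lay at 112, 82.4, 81.5, 117 and 61.6 CPM in P-SF and at 60.1, 57.6, 66.7, 21.0 and 41.2 CPM in P-HF (0.88 ± 0.25, edgeR adjusted p = 0.24). One P-HF library (P-HF 3) exceeded P-SF 5, and P-HF 4 was the lowest. Of the binding proteins, IGFBP7 lay at 164, 198, 199, 172 and 146 CPM in P-SF and at 137, 110, 108, 83.2 and 134 CPM in P-HF, without overlap (0.62 ± 0.13, edgeR adjusted p = 0.122), and IGFBP4 differed by 0.36 ± 0.13. IGF2R, the receptor that clears IGF2, differed by -0.22 ± 0.10.

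Among vascular and fibroblast growth factor genes, 17 of 25 were positive (median 0.20) and 5 were higher at p under 0.05, against 6.57% of all genes. They were the receptors FLT4 (1.14 ± 0.35), TIE1, TEK (0.38 ± 0.16) and NRP1 (0.43 ± 0.16) and the ligand FGF1 (0.60 ± 0.20), with edgeR adjusted p of 0.274 to 0.443. In WNT signalling, 22 of 30 were positive (median 0.11, and 0.07 without P-SF 2), with the ligand WNT5A at 0.34 ± 0.12 and the secreted DKK3 at 0.42 ± 0.17. DKK3 did not overlap, at 55.4 to 81.8 CPM in P-SF and 36.1 to 54.6 CPM in P-HF. In the TGF-beta family, 24 of 32 were positive (median 0.16, and 0.08 without P-HF 4) and 6 were higher at p under 0.05, against 6.57% of all genes. BMP2, a bone morphogenetic ligand, lay at 22.7, 19, 19.2, 18.6 and 18.9 CPM in P-SF and at 15.4, 13.9, 14.0, 11.9 and 12.3 CPM in P-HF. Its groups did not overlap, at 0.54 ± 0.23 (edgeR adjusted p = 0.435), and SMAD7, the inhibitory SMAD, differed by 0.36 ± 0.15.

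Hormone receptors did not lean one way, with 12 of 19 positive and a median of 0.04. NR3C2, the mineralocorticoid receptor, lay at 5.99, 9.58, 6.30, 5.89 and 6.56 CPM in P-SF and at 3.95, 4.59, 5.72, 3.61 and 2.53 CPM in P-HF, without overlap (0.75 ± 0.21, edgeR adjusted p = 0.231). PGRMC1, a membrane-associated progesterone-binding protein, lay at 231 to 385 CPM in P-SF and 315 to 367 CPM in P-HF, with P-SF 5 the highest of the 10 (-0.30 ± 0.13). OXTR, the oxytocin receptor, lay at 5.32, 6.21, 8.05, 3.90 and 3.99 CPM in P-SF and at 4.4, 8.04, 6.59, 3.31 and 10.1 CPM in P-HF. The classes overlapped throughout for OXTR, at -0.24 ± 0.49 with a 95% interval of -1.25 to 0.77. The interval for ESR1, the estrogen receptor, was -0.17 to 0.61, and that for PGR, the progesterone receptor, -0.72 to 0.35. ISG15, MX2, OXTR, ESR1, PGR, FN1, DCN, SPARC, ELN, COL5A2, PDGFRB, THY1, VIM and HOXA10 were named after their values were seen. In prostaglandin and glucocorticoid genes, 14 of 22 were positive (median 0.12, and 0.05 without P-SF 5), with PTGDS, a prostaglandin D synthase, at 0.30 ± 0.12 and PTGES2, a prostaglandin E synthase, at -0.43 ± 0.21, the latter with 32.4 CPM in P-HF 3 and 11 to 18.3 CPM in the other 9 libraries.

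**Figure D5:**
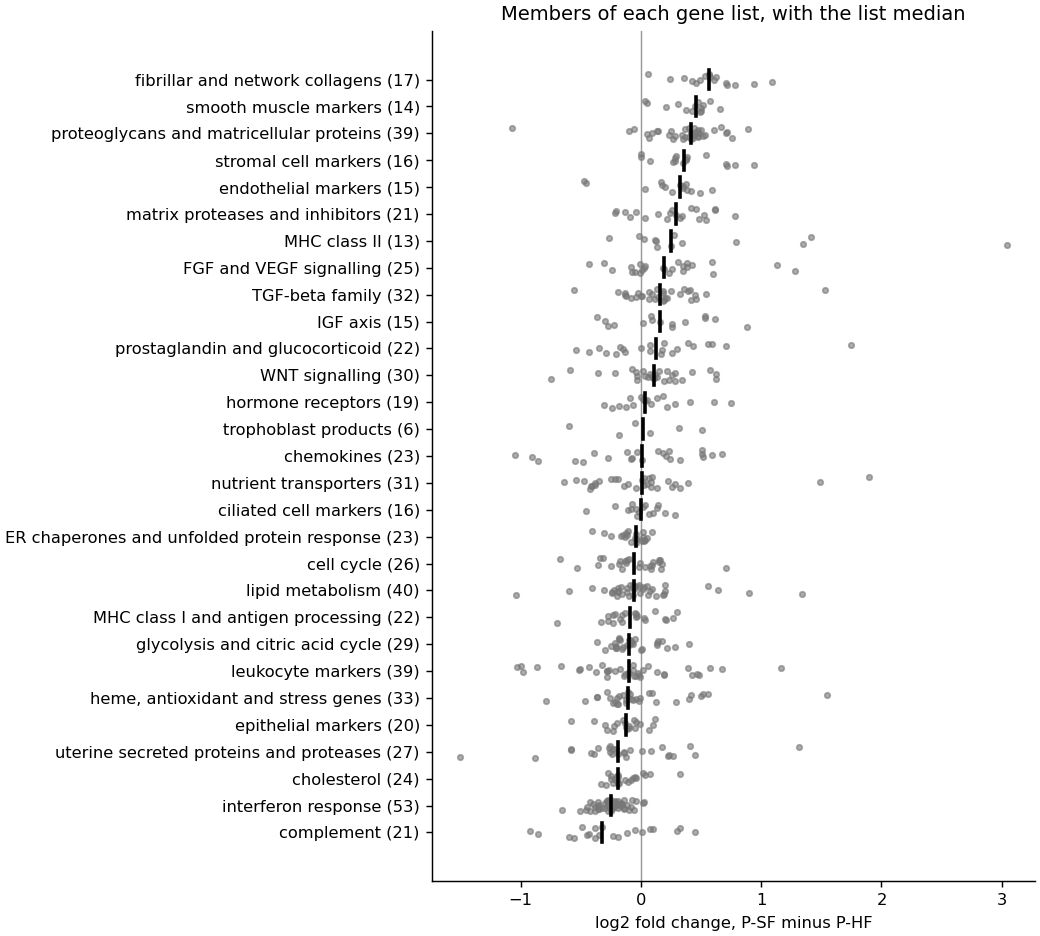
Log2 fold change (P-SF minus P-HF) of each tested member of 29 gene lists with at least 5 tested members, with member numbers in parentheses and a black tick at the list median. Collagens have the highest median (0.57) and complement genes the lowest (-0.33), and members of most metabolic lists lie on both sides of 0.

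Whether the class difference depended on pregnancy was asked with the interaction, P-SF minus P-HF against NP-SF minus NP-HF, in which no library is shared. One gene of 19606 was called (0.0051%), CILP, a secreted matrix protein first described in cartilage. CILP lay at 5.36, 5.56, 6, 6.54 and 4.57 CPM in P-SF 1 to 5 and at 2.93, 3.14, 3.16, 3.53 and 4.36 CPM in P-HF 1 to 5, and averaged 5.25 ± 0.470 CPM in NP-SF and 8.37 ± 2 CPM in NP-HF (SD, n = 5 each). Among pregnant animals every P-SF library lay above every P-HF library (0.71 ± 0.16), while the NP-SF mean lay below the NP-HF mean (-0.67), an interaction of 1.38 (edgeR adjusted p = 0.0411). Leaving out 1 of the 20 libraries at a time ended this call in 15 of 20 fits. Between NP-SF and NP-HF 0 genes were called by edgeR (0%), 709 had an unadjusted p under 0.05 (3.62%), and DESeq2 called 4.

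The medians of the matrix lists had opposite signs in pregnant and non-pregnant animals, but the non-pregnant medians were small. Opposite signs were not particular to the matrix. MHC class II genes had medians of 0.25 and -0.23, with 2 of 13 at an unadjusted interaction p under 0.05. The median collagen difference was 0.57 in pregnant and -0.08 in non-pregnant animals, and 10 of 17 collagens had an unadjusted interaction p under 0.05, against 6.81% of all genes. For COL1A1 the means were 911 ± 164 CPM in P-SF and 556 ± 170 CPM in P-HF but 1139 ± 157 CPM in NP-SF and 1715 ± 654 CPM in NP-HF (SD, n = 5 each), an interaction of 1.3 (edgeR adjusted p = 0.457). Proteoglycans and matricellular genes had medians of 0.42 and -0.06, and 12 of 39 had an unadjusted interaction p under 0.05. Interferon genes had medians of -0.24 and 0.18, with 2 of 53 under that p. Smooth muscle markers had medians of 0.46 and 0.27, and 0 of 14 were under it.

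Set beside the non-pregnant means, P-SF values lay between those of P-HF and those of both non-pregnant groups for all 12 genes named higher and for 8 of the 12 named lower, against 46.5% of all tested genes. The same held for 51 of 53 interferon genes, 15 of 17 collagens, 20 of 24 cholesterol genes and 24 of 39 proteoglycans and matricellular genes. It held for fewer members in other lists, 2 of 13 MHC class II genes, 4 of 15 endothelial markers, 6 of 19 hormone receptors, 9 of 26 cell cycle genes and 6 of 14 smooth muscle markers. For EFNB3, the means were 30.2 ± 5.79 CPM in NP-SF and 31.2 ± 4.45 CPM in NP-HF (SD, n = 5 each), above every pregnant library. For GRB7 they were 45.9 ± 7.75 and 42.9 ± 10.1 CPM (SD, n = 5 each), below all 5 P-HF libraries and within the P-SF range. These placements describe group means and were not tested, and the P-HF values that enter them are the same that chose the named genes. The P-HF mean lay above the P-SF mean and both non-pregnant means in 51 of 53 interferon genes. It lay below all of these means in 16 of 17 collagens. In such lists the placement mostly repeats the direction of P-SF minus P-HF and is no second result.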

How the data were processed

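Endometrial RNA was sequenced from stranded mRNA libraries, per the labels' protocols. The authors deposited 1 table of whole-number read counts per gene, not normalized. HISAT2, StringTie, edgeR and the genome build UMD3.1 are listed per the submitters' processing notes. Versions, settings and the strand setting of counting: not given in the sources used here. Reads of overlapping, antisense or near-identical genes (BOLA, IFNT, PAG and OAS1 families) may be misassigned. The table's 1020 empty lines were left out, and columns were matched to samples by title. Of the 31651 names, 19811 were current symbols in a RefSeq table of another assembly, used for names only. No sequences are shown, since none was at hand.

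The 25 endometrium libraries entered 1 fit of 5 groups and so share 1 estimate of spread: filterByExpr (minimum count 10, minimum total 15), TMM scaling and edgeR's quasi-likelihood test, with a gene called at a Benjamini-Hochberg adjusted p under 0.05. Values after ± are standard errors of log2 fold changes unless SD is written, and intervals are 95%. CPM used the same scaling, and list scores a pseudocount of 1 CPM. The 10 pregnant libraries correlated at r of 0.971 to 0.988 over all 45 pairs, within and between the classes, and 0 pairs were identical. Software was edgeR 4.0.16 and DESeq2 1.42.0 for count models and limma 3.58.1 for voom, under R 4.3.3. The tests were tried on simulated data first.

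The members and the 30 lists were chosen with earlier results of these data known, so no list is independent support. Named genes were the 12 of smallest p in each direction (5 CPM or more on average in the higher class, 20 or more of 25 library pairs ordered alike) and up to 4 of smallest p in each list. The 12 were taken only from names not of the form LOC and a number, a form that 11920 of the 31651 names had. Lists share members. Lists are described by counts and medians, with no test of a list. Alternatives were DESeq2, limma-voom with and without quality weights, relative log expression scaling, no filter, a filter at a mean of 5 CPM, robust estimation, only the 10 pregnant libraries, each library left out in turn, and P-SF 5 and P-HF 1 left out together.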

Additional observations from a re-analysis of the deposited data

Results flagged for a closer look

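In groups of 5, a library whose gap to the nearest of the others exceeds 0.71 of the group's range was singled out, which chance does in about 1 in 20 groups. Of 112 groups of values examined, 7 met this. P-SF 5 was such a library in 5 measures. It lay at 55.37 on the first principal component (the other P-SF libraries at -38.36 to -26.24), its ciliated cell marker score was 3 (the others 4.65 to 5.23), its glycolysis and citric acid cycle score was 6.51 (the others 6.19 to 6.25), its EFNB3 value was 3.29 on the log2(CPM + 1) scale (the others 4.26 to 4.41), and its IL4I1 value was 4.13 (the others 3.04 to 3.27). In P-HF, the collagen score of P-HF 4 was 7.06 (the others 7.52 to 7.66), and the IL4I1 value of P-HF 5 was 4.59 (the others 3.79 to 3.97). CILP was singled out because its class difference differed between pregnant and non-pregnant animals by the test of the interaction itself (1.38 on the log2 scale).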

How the results depend on the processing

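The number of genes called between P-SF and P-HF was 0 with limma-voom, relative log expression scaling, robust estimation, either other filter and the 10 pregnant libraries alone, but 95 with DESeq2, 24 with library quality weights and 634 without both P-HF 1 and P-SF 5. It ranged from 0 to 116 with 1 library left out, 116 without P-SF 5 and 13 without P-HF 1. The interaction call became 3 with DESeq2 and 0 with limma-voom, with quality weights and with no filter, and ranged from 0 to 1 with 1 library left out. The non-pregnant count was 4 with DESeq2 and 0 with each library left out. Of the genes named by the rule, 3 changed sign, and their ranges here are over all alternatives. CFAP43 (-0.21) went to 0.018 without P-SF 5 (range -0.43 to 0.018). DNAH5 (0.28) went to -0.013 with limma-voom and -0.046 without P-SF 4 (range -0.046 to 0.645). TAP2 (0.21) went to -0.024 without both P-HF 1 and P-SF 5 (range -0.024 to 0.291). The cause was not tested. The others kept their direction in every alternative run; genes outside that rule were not refitted. The median changed sign in at least 1 alternative for the cell cycle, chemokine, ciliated, glycolysis, leukocyte, transporter, red blood cell and trophoblast lists. No paired analysis was possible because replicate numbers here follow accession order and no animal number is shared between groups.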

Other observations

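Metabolic lists mostly had small negative medians in P-SF. Cholesterol genes were negative in 20 of 24 (median -0.19), with NPC1, which exports cholesterol from lysosomes, at 152, 159, 142, 184 and 143 CPM in P-SF 1 to 5 and at 188, 167, 192, 222 and 171 CPM in P-HF 1 to 5 (-0.27 ± 0.12, edgeR adjusted p = 0.474), and P-HF 3 was the highest library in 14 of the 24. Without P-HF 3 the cholesterol median was -0.006. Glycolysis and citric acid cycle genes were negative in 21 of 29 (median -0.10, 0.002 without P-HF 3 and -0.19 without P-SF 5), and P-HF 3 was the highest library in 18. Of these, citrate synthase (CS) lay at 53.2 to 67.9 CPM in P-SF and 55.3 to 78.0 CPM in P-HF (-0.21 ± 0.09). In lipid metabolism, 25 of 40 were negative (median -0.06, -0.10 without P-SF 5 and -0.03 without P-HF 3), with the desaturase FADS2 at 211 to 300 CPM in P-SF and 278 to 409 CPM in P-HF (-0.41 ± 0.14, edgeR adjusted p = 0.337), opposite in sign to SCD5. Cell cycle genes (11 of 26 positive, median -0.06) and nutrient transporters (16 of 31 positive, median 0.01) showed no common direction. Chaperones of the endoplasmic reticulum were positive in 8 of 23 (median -0.04), and P-SF 5 was the highest library in 13 of them. Without P-SF 5, 3 of the 23 chaperones were positive, with a median of -0.12.

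Genes of uterine secretion were negative in 18 of 27 (median -0.19, and -0.10 without P-HF 3) and varied widely between animals. CRYGS, a crystallin, lay at 7.29, 13.4, 2.47, 2.88 and 44.4 CPM in P-SF 1 to 5 and at 4.06, 38.2, 103, 21.3 and 32.5 CPM in P-HF 1 to 5 (-1.51 ± 0.74, edgeR adjusted p = 0.499). P-SF 5 was the highest P-SF library for CRYGS and P-HF 1 the lowest P-HF library, the same 2 libraries that stood apart on the first principal component. TDGF1, a co-receptor of nodal signalling, lay at 77.3, 252, 124, 315 and 172 CPM in P-SF and at 58.4, 35.7, 33.1, 104 and 147 CPM in P-HF (1.31 ± 0.59, edgeR adjusted p = 0.47). Heme, antioxidant and stress genes were negative in 23 of 33 (median -0.11, -0.20 without P-SF 5 and -0.06 without P-HF 5), with FOSB, an early response factor, at 1.54 ± 0.46 and the phosphatase DUSP1 at 0.51 ± 0.21 among the positive ones.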
